A study of Nicotiana tabacum with 9 samples.

Results

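LOC107819401 and LOC107819521 are the tobacco (Nicotiana tabacum) genes that the study assigns to Arabidopsis LPP1/PAP1, a phosphatidic acid phosphatase of the lipid phosphate phosphatase (LPP) type. They are 2 of the 74044 genes counted, were taken by name from the list of these homologs and were followed through all 9 RNA-seq libraries. From these same data, the study had already reported very high levels of 2 LPP1/PAP1 homologs and an increase during heat stress. Both traits were thus known before the genes were taken. Transcript levels were measured in pollen tubes of the cultivar Samsun-NN, grown in vitro from pollen pooled over several plants in each experiment. The 3 conditions, with n = 3 libraries each, were growth for 3 h at room temperature (RT 3 h), growth for 6 h at room temperature (RT 6 h), and growth for 3 h at room temperature followed by 3 h of heat stress at 37 °C (HS 3 + 3 h). All tubes thus shared the cultivar, the medium and the first 3 h at room temperature, and the heat-stressed tubes had the age of the RT 6 h tubes at harvest. The tubes were sampled as whole cultures, and their identity was not checked here against pollen markers, since the annotation used gives gene names without products. In such bulk samples fewer cells of a type and less RNA per cell cannot be told apart, and every level is relative to the other mRNA of the same library.

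Phosphatidic acid is a minor phospholipid at a branch point of glycerolipid metabolism, where it is made by stepwise acylation of glycerol 3-phosphate, by phospholipase D from membrane lipids, or by diacylglycerol kinases. Phosphatidate phosphatases remove its phosphate and leave diacylglycerol, the precursor of triacylglycerol and of phosphatidylcholine and phosphatidylethanolamine. The LPP enzymes are membrane-bound, also accept related lipid phosphates and do not need magnesium. In pollen tubes, phosphatidic acid is also known as a signalling lipid of the growing tip, and Arabidopsis LPP1 is known as a gene that stress treatments induce.

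In the TN90 annotation that was used for counting, LOC107819401 lay on the plus strand of scaffold NW_015822123.1, from 38926 to 41964, and was the only gene of its scaffold. LOC107819521 lay on the plus strand of scaffold NW_015822442.1, from 272478 to 275782, with its nearest neighbour, LOC107819520, 25448 bases away. No other annotated gene overlapped either of them, so that the lack of strand information in these libraries mixes no annotated antisense gene into their counts. Both genes had 8 exons and a coding length of 861 bases, and all 8 coding blocks had the same lengths in both genes, namely 8, 235, 88, 110, 91, 189, 60 and 80 bases from the first exon to the last. The models differed in the untranslated ends and in the introns. The 5′ untranslated part measured 197 bases in LOC107819401 and 188 in LOC107819521, the 3′ untranslated part 397 and 326 bases, and the 7 introns summed to 1584 and 1930 bases. Reads of 50 bases from such similar copies may fit both genes, and how the counting treated them is not given in the sources used here, which limits every value of a single copy below.

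**Figure D1:**
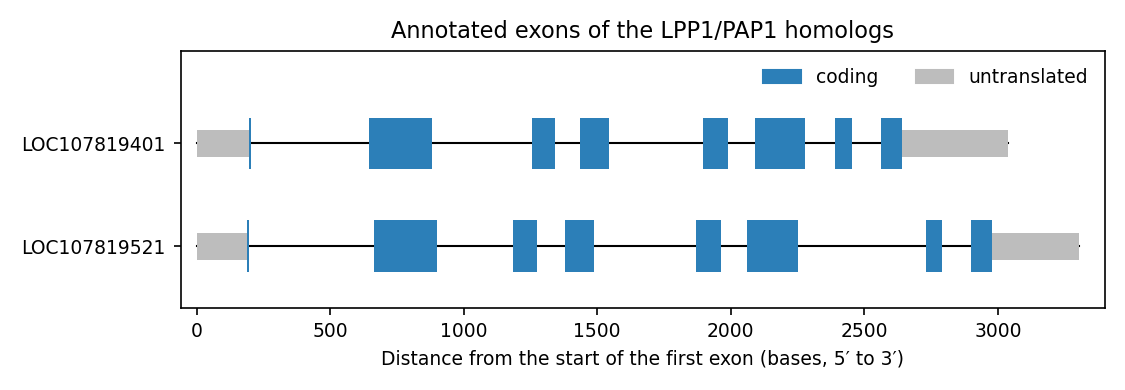
Annotated exons of both LPP1/PAP1 homologs against the distance in bases from the start of the first exon, with coding stretches as tall blue boxes, untranslated stretches as low grey boxes and introns as lines. The 8 coding blocks have the same lengths in both genes, while intron lengths and the last exon (477 bases in LOC107819401 and 406 in LOC107819521) differ.

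Both homologs were abundant in every library. The libraries held between 14931693 counts on genes (HS 3 + 3 h replicate 1) and 26772286 (RT 3 h replicate 2). The counts of LOC107819401 were 7953, 8775 and 8425 at RT 3 h, then 6546, 7427 and 7396 at RT 6 h, with 5935, 9481 and 9836 in the heat-stressed libraries. Those of LOC107819521 were 6231, 7168 and 6879 at RT 3 h, then 5021, 5627 and 5859 at RT 6 h, with 3725, 5806 and 6112 in the heat-stressed libraries. The low counts of both genes in HS replicate 1 went with the small total of that library and were not seen once counts were scaled. Per length, in reads per kilobase of summed exons per Mio TMM-scaled counts (RPKM, with TMM as edgeR's scaling of library sizes), LOC107819401 stood between position 372 and 483 of all genes of a library and LOC107819521 between position 485 and 574. At most 1.28% of the genes with a count in a library were above LOC107819401, and at most 1.52% were above LOC107819521.

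The comparison at equal age asks what heat did to tubes of equal age. Both homologs rose under HS 3 + 3 h, LOC107819401 by 56.0% and LOC107819521 by 25.3% relative to RT 6 h. In counts per Mio on a common TMM scale (CPM), LOC107819401 had 273, 284 and 289 at RT 6 h and 440, 432 and 448 under HS 3 + 3 h, means of 282 ± 7.78 and 440 ± 7.93 (SD, n = 3). All 3 heat-stressed libraries thus lay far above all 3 unstressed ones. LOC107819521 had 210, 215 and 229 CPM at RT 6 h and 276, 265 and 278 under HS 3 + 3 h, means of 218 ± 9.82 and 273 ± 7.35 (SD, n = 3). The groups did not overlap here either, but the gap between them was smaller. How many of all genes separated in this way was not counted, so it is not a trait particular to these genes.

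In edgeR's quasi-likelihood test, the log2 fold change (log2FC) of HS 3 + 3 h against RT 6 h was 0.64 (SE 0.042) for LOC107819401, with a false discovery rate (FDR, Benjamini-Hochberg over all genes tested) of 1.91e-24. For LOC107819521 it was 0.32 (SE 0.043), with an FDR of 6.89e-10. Both passed the FDR limit of 0.005, which is what "rose", "fell" and "changed" mean here, and neither passed the further limit of an absolute log2FC above 1. Changes past the FDR limit were common, with 31.9% of the 23053 genes tested, 17.5% higher and 14.4% lower, while 9.11% passed both limits. Of all genes tested, 12.5% had a larger log2FC than LOC107819401 and 25.3% had a larger one than LOC107819521. Without TMM, which moved the median of all genes to -0.15, the log2FC values were 0.49 and 0.17 and both FDRs stayed under the limit.

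**Figure D2:**
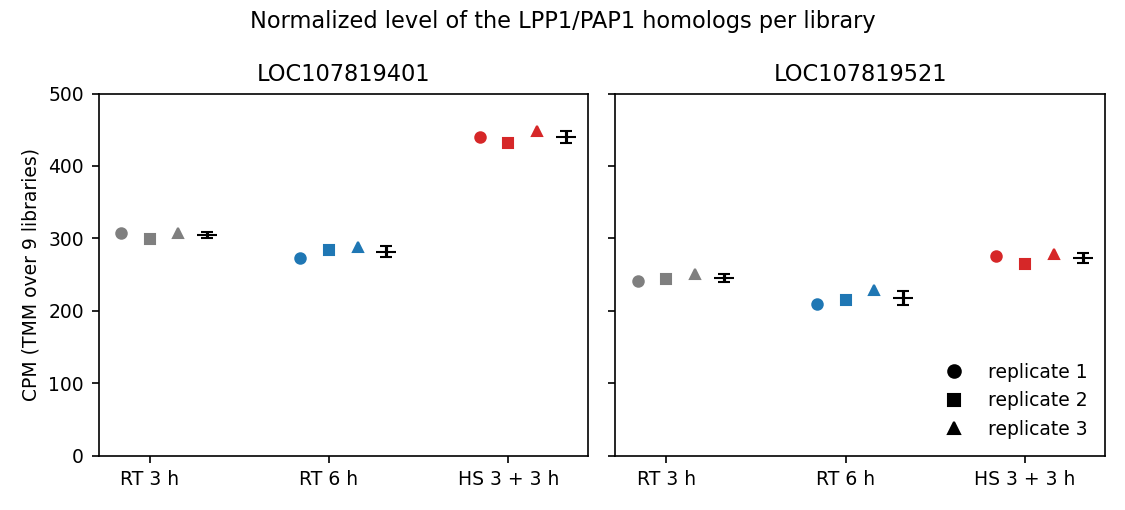
CPM on the TMM scale of LOC107819401 (left) and LOC107819521 (right) in each of the 9 libraries by condition, with symbols for replicates 1 to 3 and the mean ± SD in black beside them. The 3 heat-stressed libraries lie between 432 and 448 CPM for LOC107819401 and between 265 and 278 CPM for LOC107819521, above all unstressed libraries of the same gene.

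Growth from 3 h to 6 h without heat was compared next. Neither homolog passed the limit with TMM, all 6 libraries and no replicate number in the fit. LOC107819401 had 307, 299 and 308 CPM at RT 3 h, a mean of 305 ± 4.69 (SD, n = 3), against the 282 CPM at RT 6 h. LOC107819521 had 241, 244 and 251 CPM at RT 3 h, a mean of 245 ± 5.36 (SD, n = 3), against the 218 CPM at RT 6 h. For both genes the 3 values at RT 6 h were below the 3 values at RT 3 h. The share of all genes whose libraries separated like this was not computed, so the separation alone carries little weight. The log2FC of RT 6 h against RT 3 h was -0.10 (SE 0.050, FDR 0.128) for LOC107819401 and -0.17 (SE 0.052, FDR 0.0184) for LOC107819521. In this comparison 15.3% of the 23043 genes tested passed the FDR limit, 7.39% higher and 7.92% lower, and 1.7% passed both limits. These calls depended on the scaling, since without TMM the log2FC values were -0.25 (FDR 3.0e-04) and -0.31 (FDR 4.1e-05), with the median of all genes at -0.13. LOC107819521 also passed the limit when RT 3 h replicate 1 was left out, with an FDR of 0.00132. With the replicate number in the fit as a block, this gene passed as well (FDR 8.4e-04).

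Against tubes at the onset of heat, LOC107819401 was higher under HS 3 + 3 h and LOC107819521 did not pass the limit. This comparison shares its heat-stressed libraries with the comparison at equal age and its RT 3 h libraries with that of growth. The log2FC of HS 3 + 3 h against RT 3 h was 0.52 (SE 0.050, FDR 1.33e-10) for LOC107819401, a rise of 43.6%. For LOC107819521 it was 0.15 (SE 0.052, FDR 0.0189). Of the 23373 genes tested, 35.3% passed the FDR limit, 18.5% higher and 16.9% lower, and 12.3% passed both limits. Without TMM, where the median of all genes was -0.28, LOC107819401 still rose with a log2FC of 0.24, while that of LOC107819521 turned to -0.14 (FDR 0.0188). The level of LOC107819521 after heat, relative to the onset of heat, therefore had no direction that held across scalings. Ordered by level, both genes were lowest at RT 6 h and highest under HS 3 + 3 h on the TMM scale.

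The balance between the copies was compared within libraries, where the ratio of 2 genes does not depend on how libraries are scaled. At RT 3 h, the log2 ratio of counts of LOC107819401 to LOC107819521 was 0.35, 0.29 and 0.29, a mean of 0.31 ± 0.035 (SD, n = 3). At RT 6 h it was 0.38, 0.40 and 0.34, a mean of 0.37 ± 0.033. Under HS 3 + 3 h it was 0.67, 0.71 and 0.69, a mean of 0.69 ± 0.018. For each count of LOC107819521 there were thus 1.24 ± 0.030 counts of LOC107819401 at RT 3 h and 1.30 ± 0.030 at RT 6 h, compared with 1.61 ± 0.020 in heat-stressed tubes (SD, n = 3). Per exon length, the same ratios were 1.17 ± 0.028, 1.22 ± 0.028 and 1.52 ± 0.019 (SD, n = 3). The SD that counting error alone gives a single log2 ratio lay between 0.023 and 0.030.

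The 3 conditions differed in this ratio in an exact permutation test of the F statistic over the 9 libraries (p = 0.00714, where the smallest p possible is 0.00357). The heat-stressed libraries exceeded those of RT 6 h by 0.32 and those of RT 3 h by 0.38 on the log2 scale, in all 3 libraries. In two-sided exact permutation tests of the 3 pairs of conditions, p was 0.1 for both, the smallest that 3 against 3 libraries can give, and 0.15 adjusted over the pairs. Between RT 6 h and RT 3 h the difference was 0.061, the libraries overlapped and the exact p was 0.2 (adjusted p = 0.2).

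**Figure D3:**
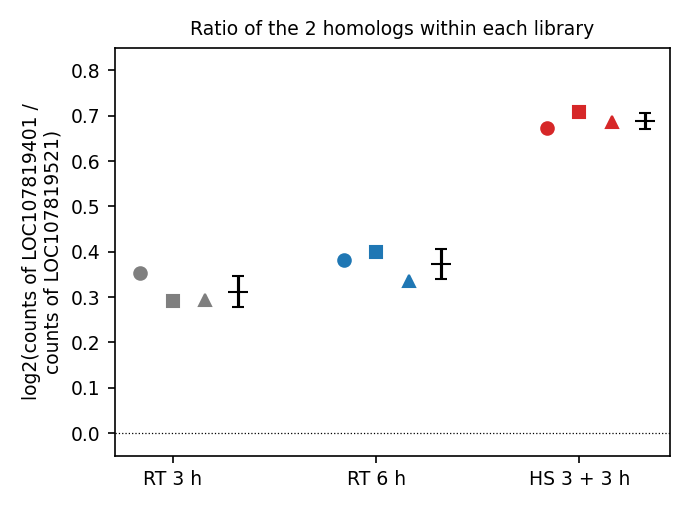
Log2 ratio of the counts of LOC107819401 to those of LOC107819521 within each of the 9 libraries, by condition, with symbols for replicates 1 to 3 (circle, square, triangle), the mean ± SD in black and equal counts as a dotted line. The heat-stressed libraries lie between 0.67 and 0.71, above the unstressed ones, which lie between 0.29 and 0.40.

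The other 8 homologs of LPP-type phosphatases were less abundant per length than either LPP1/PAP1 homolog in each condition. In the order RT 3 h, RT 6 h and heat, LOC107819401 reached 209 ± 3.23, 194 ± 5.35 and 302 ± 5.45 RPKM, and LOC107819521 reached 178 ± 3.90, 158 ± 7.14 and 199 ± 5.34 RPKM (SD, n = 3). The most abundant of the other homologs was LOC107794591, assigned to LPPδ, with 19.7 ± 0.983, 17.3 ± 1.21 and 17.4 ± 1.54 RPKM. Together the LPP1/PAP1 homologs held 89.4 ± 0.557% of the summed RPKM of all 10 LPP-type homologs at RT 3 h, 87.8 ± 0.381% at RT 6 h and 92.0 ± 0.521% with heat (SD, n = 3). The libraries of the 3 conditions did not overlap in this share. The sum over both LPP1/PAP1 homologs was 352 ± 12.2 RPKM at RT 6 h and 501 ± 10.6 under HS 3 + 3 h, while that over the other homologs was 48.8 ± 0.652 and 43.4 ± 3.67. On gene spans with introns in place of exon lengths, the share was 93.9%, 93.0% and 95.4%, in the same order.

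**Figure D4:**
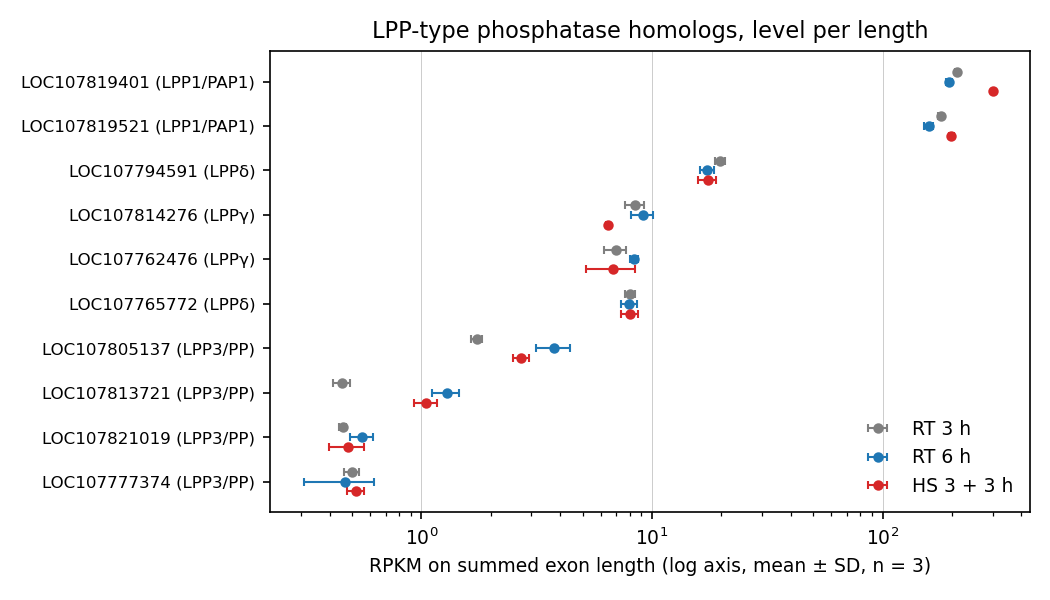
Level per length (RPKM on summed exon length, log axis) of the 10 LPP-type phosphatase homologs at RT 3 h (grey), RT 6 h (blue) and HS 3 + 3 h (red), as mean ± SD of 3 libraries, ordered by the level at RT 6 h. The LPP1/PAP1 homologs are at the top in each condition, at 158 RPKM or more, and the other 8 are at 19.7 RPKM or less.

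The LPP-type homologs other than LPP1/PAP1 had no member that rose in HS 3 + 3 h against RT 6 h, where 2 of the 8 fell (3 without TMM), beside 17.5% of all genes higher and 14.4% lower. Both LPPγ homologs, relatives of an enzyme located in Arabidopsis chloroplasts, were tested, and LOC107814276 fell from 11.0 ± 1.19 to 7.75 ± 0.160 CPM (SD, n = 3), a log2FC of -0.50 (SE 0.099, FDR 1.5e-05), while LOC107762476 had a log2FC of -0.26 (FDR 0.043). LOC107794591 and LOC107765772, the homologs of LPPδ, which acts on long chain base phosphates in Arabidopsis, had a log2FC of 0.02 each and did not pass. Of the 4 LPP3 homologs, LOC107805137 fell with a log2FC of -0.50 (SE 0.123, FDR 5.2e-04), and LOC107813721 (-0.31), LOC107821019 (-0.21) and LOC107777374 (0.13) did not pass. From RT 3 h to RT 6 h, LOC107805137 and LOC107813721 had risen, with log2FC values of 1.13 and 1.51. Both stayed at low levels, with 6.77 ± 1.12 and 1.86 ± 0.251 CPM at RT 6 h (SD, n = 3). In that growth comparison, where 7.39% of all genes were higher and 7.92% lower, 2 of the 8 rose and none fell (2 and 1 without TMM). In HS 3 + 3 h against RT 3 h, where 18.5% of all genes were higher and 16.9% lower, 2 rose and 1 fell (1 and 2 without TMM). The fall, of LOC107814276, lost its call with DESeq2 (FDR 0.0113) and without several single libraries (FDRs of 0.0053 to 0.0152). The rise of LOC107805137 lost its call without RT 3 h replicate 2 (FDR 0.0052).

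The enzymes of and around the phosphatase step were described from the study's lists of homologs. The lists held 73 genes, with the other 8 LPP-type homologs and without the LPP1/PAP1 homologs, all tested in HS 3 + 3 h against RT 6 h. Of these, 13 rose and 19 fell, 43.8% in all against the 31.9% of all genes, with a median log2FC of -0.03 against 0.01 over all genes. Under library sizes without TMM the split was 10 and 27. Among the enzymes that form phosphatidic acid, 2 of 18 phospholipase D homologs rose and 5 fell (median log2FC -0.15). The largest of these changes were in LOC107818230 (-0.87) and LOC107820864 (-0.60), homologs of PLDβ1, and LOC107772442 (-0.43), a homolog of PLDα1, all falls. Of 14 diacylglycerol kinase homologs, which phosphorylate the product of the phosphatases back to phosphatidic acid, 2 rose and 4 fell (median log2FC -0.15). LOC107773804 (DGK7) fell with a log2FC of -2.13. It had 10 to 18 counts per library at RT 6 h and 1 to 4 under HS 3 + 3 h. From RT 3 h to RT 6 h it had risen, with a log2FC of 3.77 (FDR 2.4e-05, not tested with a minimum of 10 counts). LOC107783094 (DGK1) rose with 0.64, and LOC107818851 (DGK5) fell with -0.49. Of 9 homologs of lysophosphatidic acid acyltransferases, 1 rose and 2 fell (median log2FC 0.07, or -0.09 without TMM), namely LOC107802741 (LPAT2, 0.55), LOC107793710 (LPAT4, -0.55) and LOC107768249 (LPAT4, -0.36).

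The enzymes that draw on phosphatidic acid or on diacylglycerol are given by group, against the 17.5% of all genes that were higher and the 14.4% that were lower in this comparison, and differences between groups were not tested. Of 5 homologs of CDP-diacylglycerol synthase, which turns phosphatidic acid to phosphatidylglycerol and phosphatidylinositol synthesis, 2 fell and none rose (median log2FC -0.04). They were LOC107761528, with a log2FC of -0.999, and LOC107821937, with -0.32. Both homologs of AAPT1, the enzyme of the last step to phosphatidylcholine and phosphatidylethanolamine, fell, LOC107817652 from 71.0 ± 2.27 to 48.3 ± 2.14 CPM (SD, n = 3, log2FC -0.56) and LOC107795102 with a log2FC of -0.36. Of 9 homologs of diacylglycerol acyltransferases, which make triacylglycerol, 7 rose and 1 fell (median log2FC 1.07). The changes of LOC107830919 (2.83), LOC107789692 (2.49) and LOC107775049 (2.29), all assigned to DGAT1, were the largest of this group. They came from low counts, with 8 to 12, 2 to 4 and 3 to 12 per library at RT 6 h. From RT 3 h to RT 6 h, LOC107830919 had fallen with a log2FC of -1.37 (FDR 0.0011, a call lost with DESeq2). LOC107775049 had -1.05 (FDR 0.045) in that comparison, and LOC107789692 was not tested. Against RT 3 h, the heat-stressed tubes had a log2FC of 1.24 for LOC107775049. Of 5 homologs of phospholipid:diacylglycerol acyltransferase, LOC107818243 rose (0.54) and LOC107811062 fell (-0.29, FDR 0.0038), with a median of -0.03. None of the 3 homologs of non-specific phospholipase C, which release diacylglycerol from phospholipids, passed the limit in edgeR's test, with FDRs between 0.077 and 0.86, and log2FC values between -0.41 and 0.25.

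**Figure D5:**
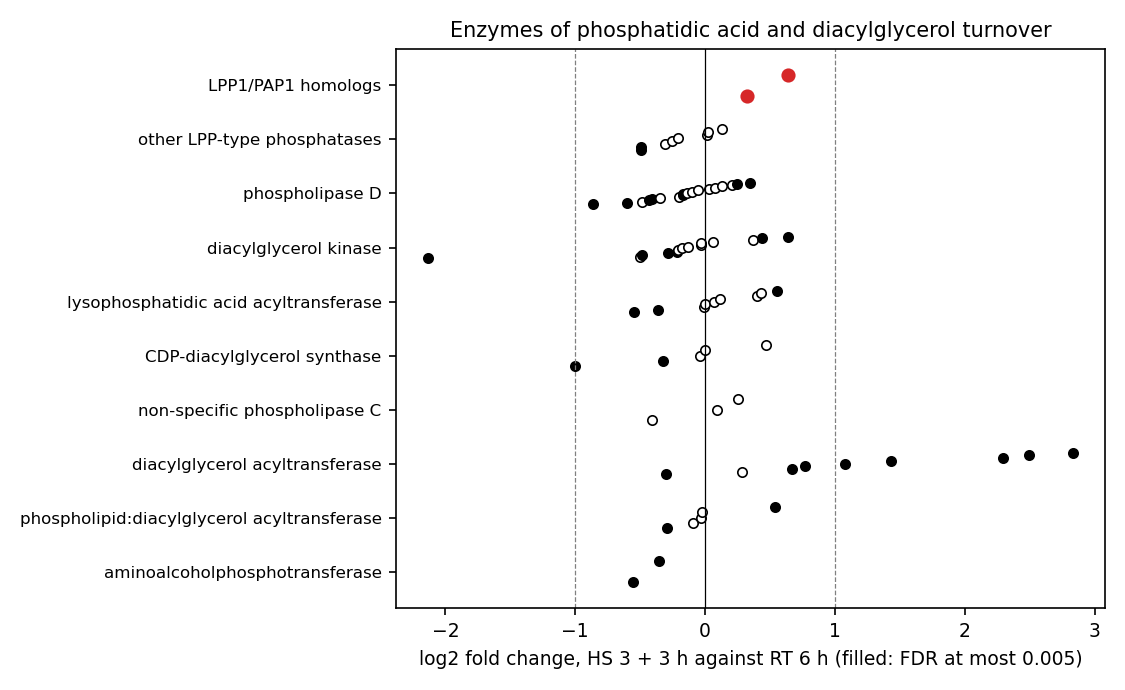
Log2 fold change of HS 3 + 3 h against RT 6 h for each tested homolog of the enzymes of phosphatidic acid and diacylglycerol turnover, 1 row per enzyme group, filled where the FDR was at most 0.005, with dashed lines at a log2FC of -1 and 1. The LPP1/PAP1 homologs (red) lie at 0.64 and 0.32, and the diacylglycerol acyltransferases reach 2.83.

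The pattern of each LPP1/PAP1 homolog over the 9 libraries was set beside those of 24012 other genes by the root mean square distance of log2 CPM after each gene was centred on its own mean. The nearest genes to LOC107819401 were LOC107766847 (distance 0.034), LOC107824085 (0.034) and LOC107783290 (0.044), with means of 285, 615 and 114 CPM under HS 3 + 3 h and of 184, 377 and 73.3 CPM at RT 6 h. The nearest to LOC107819521 were LOC107761703 (0.037), LOC107790933 (0.040) and LOC107791325 (0.041). Their means were 2.31, 288 and 18.3 CPM under HS 3 + 3 h and 1.84, 238 and 15.1 CPM at RT 6 h. Counting error is larger at a level as low as that of LOC107761703, so its place as the nearest gene is uncertain. The homologs were not each other's nearest genes. At a distance of 0.17, LOC107819521 was in position 974 from LOC107819401, and LOC107819401 was in position 2207 from LOC107819521. These distances are a description over 9 points in 3 conditions on a common scaling.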

How the data were processed

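RNA-seq libraries of pollen tubes were prepared from mRNA without strand information and sequenced as single-end reads of 50 bases. The authors demultiplexed the reads with bcl2fastq 2.17.1.14, aligned them to the TN90 tobacco genome with STAR 2.5.2a and counted them per gene with featureCounts 1.5.0-p1, per the labels and the methods. The deposited values are raw counts of 74044 genes in each library. Exon and coding positions are those of the annotation the authors deposited. No other column of per-sample values was present (0).

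Counts were analysed in R 4.3.3 with edgeR 4.0.16 (limma 3.58.1) by the quasi-likelihood test, with TMM factors and a separate fit on the 6 libraries of each comparison. A gene was tested when at least 2 of the 6 libraries exceeded 0.5 CPM. CPM and RPKM in the text use TMM factors over all 9 libraries, so their ratios differ slightly from the fitted fold changes. Log2 CPM for distances used a prior count of 2. Fits were tested on simulated counts with the same spread beyond counting error for every gene and no difference in RNA composition between conditions. These data are less even, so that test does not show how the fits perform on them. Figures and exact permutation tests were made in Python 3.11.15 (pandas 2.3.3, scipy 1.17.1, matplotlib 3.10.9). No 2 replicates agreed within sampling noise. Whether they came from separate pollen pools is not given in the sources used here, so p-values measure only the spread between these samples, which may be technical.

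Alternatives were DESeq2 1.42.0, its size factors in edgeR, the likelihood ratio test of edgeR, no TMM, no filter, a minimum of 10 counts per library, a joint fit of the 9 libraries, a replicate block, an FDR limit of 0.05 for counts of genes, gene spans as lengths, likeness by Pearson r, and leaving out each library. The genes and lists were chosen with earlier results of these data known. Gene lists follow the study's assignment of homologs, and 1 further group of genes is not reported here. Named were both LPP1/PAP1 homologs, every other LPP-type phosphatase homolog, in each other list up to 3 genes past the FDR limit with the largest absolute log2FC of HS 3 + 3 h against RT 6 h, and the 3 genes nearest in pattern to each homolog. Sequences were not analysed here.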

Additional observations from a re-analysis of the deposited data

How the results depend on the processing

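For both LPP1/PAP1 homologs, the rise in HS 3 + 3 h against RT 6 h passed the FDR limit under every alternative run, with log2FC values between 0.61 and 0.66 for LOC107819401 and between 0.29 and 0.36 for LOC107819521 without single libraries. So did that of LOC107819401 against RT 3 h (0.49 to 0.54 without single libraries). Without TMM, RT 6 h against RT 3 h gave -0.31 for LOC107819521 and -0.25 for LOC107819401, both then past the limit, and HS 3 + 3 h against RT 3 h gave -0.14 for LOC107819521, a turn of direction. Without single libraries, LOC107819521 gave -0.20 to -0.14 in RT 6 h against RT 3 h, past the limit only without RT 3 h replicate 1, and 0.12 to 0.17 in HS 3 + 3 h against RT 3 h. The share of higher genes among all calls fell without TMM from 48.2% to 19.5% for RT 6 h against RT 3 h, from 54.9% to 34.4% for HS 3 + 3 h against RT 6 h and from 52.3% to 24.7% for HS 3 + 3 h against RT 3 h. An FDR limit of 0.05 raised the genes called in RT 6 h against RT 3 h from 3528 to 5997 (lists, 15 to 26). Without single libraries they were 2195 to 3762 and 9 to 18, both lowest without RT 6 h replicate 2. On the longer gene spans, RPKM levels were 100.3, 92.7 and 144.8 for LOC107819401 and 74.3, 65.9 and 82.6 for LOC107819521, in the order RT 3 h, RT 6 h and heat. Without TMM, on exon lengths, they were 231 and 273 for LOC107819401 and 197 and 179 for LOC107819521 (RT 3 h and heat). Ranked by Pearson r, 0 of the 3 nearest genes were shared for either homolog. The cause of these shifts was not tested. Of the genes named from the lists in HS 3 + 3 h against RT 6 h, those that lost the call with DESeq2 were LOC107805137 (FDR 0.0104), LOC107820864 (0.0347), LOC107773804 (0.0136), LOC107783094 (0.0110), LOC107821937 (0.00689) and LOC107811062 (0.0284), all 6 also without 1 or more libraries. LOC107772442 lost it without HS 3 + 3 h replicate 3 (0.00899), LOC107783094 without TMM (0.00873), and LOC107820864 (0.00632) and LOC107811062 (0.00854) in one fit of 9 libraries. With a minimum of 10 counts, LOC107773804, LOC107830919, LOC107789692 and LOC107775049 were not tested.

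Same-numbered replicates correlated at -0.019 to 0.106, too weakly to decide whether the numbers pair the samples. With the replicate block, LOC107820864 lost its call in HS 3 + 3 h against RT 6 h (FDR 0.00661), LOC107819521 passed the limit in RT 6 h against RT 3 h (log2FC -0.17, FDR 8.4e-04), and the genes called were 4530 in that comparison against 3528 without it, 6915 against 7349 in HS 3 + 3 h against RT 6 h, and 7931 against 8258 in HS 3 + 3 h against RT 3 h.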
